A study of Homo sapiens with 24 samples.

Results

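The genes described here are 8 that the retinal pigment epithelium (RPE) uses to recognise and engulf shed photoreceptor outer segments: the receptors MERTK, TYRO3 and AXL, their ligands GAS6 and PROS1, the bridging protein gene MFGE8, and the cytoplasmic genes GULP1 and MYO7A. They were chosen by name and function, though with earlier results of these data known, and are 8 of 60623 genes in the count table. All 8 were tested, since each had at least 10 reads over the libraries, as did 24873 genes in all. MYO7A was almost absent from the knockdown line, GULP1 and MERTK were several fold higher in the vector control line than in wild-type cells, and GAS6 was several fold lower in both retrovirally transduced lines.

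The samples are 24 libraries of total RNA, depleted of ribosomal RNA, from ARPE-19, an established human RPE cell line, in 8 groups of 3. Wild-type (WT) cells were not transduced. Cells overexpressing epithelial membrane protein 2 (EMP2), the OE line, carried an EMP2 construct delivered by retrovirus, and the vector control (VC) line carried a control construct delivered in the same way. In the knockdown (KD) line EMP2 was reduced by a short hairpin RNA delivered by lentivirus. No library of a non-target hairpin line was analysed here, so the KD line is compared with WT cells, which had no lentivirus. Each line was kept for 2 weeks in normoxia, which is ordinary incubator air, and was then left there or placed for 4 h, by the labels, in 0.5% oxygen (hypoxia). The methods call the KD lines clones, and the KD labels do not say which of them, or which hairpin, was used. The OE labels name OE1 for the third library at each oxygen level and OE2 for the first and second. Whether OE1 and OE2 are the same line is not given, and they were kept as 1 group, so its spread may include a difference between them. Nothing says whether the 3 libraries of a group came from separate cultures. The p-values set each difference against the spread of these libraries, and that spread may be technical. Whether the OE and VC lines are single clones is not given in the sources used here.

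Every day the RPE removes the oldest tips of the outer segments. Tips that are due for removal expose phosphatidylserine, an inner-leaflet lipid. GAS6 and protein S (PROS1) bind that lipid and the TAM receptors, a family of receptor tyrosine kinases named after TYRO3, AXL and MERTK. In the RPE, MERTK drives ingestion, and its loss in the RCS rat and in people with MERTK mutations leads to retinal degeneration. MFGE8 bridges phosphatidylserine to the integrin αvβ5, which binds the particle and signals towards MERTK. GULP1 is an adaptor of the engulfment receptors MEGF10 and LRP1. MYO7A is the unconventional myosin that moves melanosomes and phagosomes in RPE cells, and its mutations cause Usher syndrome type 1B.

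Promoter sequence is shown for AXL and MERTK because these receptors had the largest rises in hypoxia among the 8 genes, a choice made after their values were seen. The windows are the 250 bases before the annotated start in RefSeq (GRCh38.p14), 5′ to 3′ on the gene's strand. The hypoxia response element core ACGTG was searched on both strands, where its reverse complement is CACGT, and matches are in capitals. AXL has a window at its upstream start (chr19:41218973-41219222, plus strand) and another inside the gene (chr19:41226505-41226754, plus strand), and MERTK has 1 window (chr2:111898357-111898606, plus strand).
AXL upstream start: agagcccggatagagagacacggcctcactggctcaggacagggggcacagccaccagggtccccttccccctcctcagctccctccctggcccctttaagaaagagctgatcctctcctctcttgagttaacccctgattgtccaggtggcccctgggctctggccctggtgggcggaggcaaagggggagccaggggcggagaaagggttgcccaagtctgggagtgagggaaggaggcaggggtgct
AXL internal start: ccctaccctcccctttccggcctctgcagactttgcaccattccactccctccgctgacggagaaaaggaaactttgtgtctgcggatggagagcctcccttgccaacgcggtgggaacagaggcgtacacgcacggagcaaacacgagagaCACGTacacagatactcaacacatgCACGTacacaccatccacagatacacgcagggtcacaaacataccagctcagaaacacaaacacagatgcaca
MERTK: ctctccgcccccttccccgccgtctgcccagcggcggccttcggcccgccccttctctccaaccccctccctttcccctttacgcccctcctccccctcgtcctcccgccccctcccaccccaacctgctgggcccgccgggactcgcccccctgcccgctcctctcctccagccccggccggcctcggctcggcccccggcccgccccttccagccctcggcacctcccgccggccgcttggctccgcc
The internal AXL window held 2 matches and the other windows shown held 0. Of 35116 RefSeq windows of the same length, 6501 (18.5%) held at least 1 match. The windows of TYRO3, GAS6, PROS1, MFGE8 and GULP1 held 0 matches. MYO7A had no window in the set used and was not searched. A match describes the letters in the window and is no evidence of binding.

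Depth was 10796813 to 19779450 reads assigned to genes per library, with a median of 15992615. The first OE library in hypoxia stood apart, since 64.9% of its uniquely mapped reads were assigned to genes and 90.0% to 91.5% were in the others. Results that rest on it are also given without it where the call or the direction changed. Pairs of OE libraries in hypoxia differed most, at a chi-square per degree of freedom against counting error of 36.2, 36.9 and 12.2. Pairs in the other groups had 2.07 to 10.7. The fit gives each gene 1 estimate of spread for all groups, so standard errors for OE in hypoxia may be too small. Among 13 markers of the labelled cell type, MITF, OTX2 and BEST1 had at least 46.0, 33.2 and 21.4 CPM (read counts scaled by library size) in every library, with BEST1 at 625 CPM in 1 OE library in hypoxia, whereas RPE65 had group means of 0 to 1.13 CPM and TTR was at 0 counts throughout. Of the 12 RPE markers that could be tested, against WT in normoxia and hypoxia, 3 were higher and 7 lower and then 3 and 5 in VC (median log2 change -1.25 and -0.54), 3 and 6 and then 5 and 3 in OE (-0.22 and -0.17), and 2 and 4 at each in KD (-0.19 and -0.33). Their summed level was 932 to 1004 CPM in WT, 1937 to 2307 CPM in VC, 1192 to 1662 CPM in OE and 743 to 807 CPM in KD libraries. In VC the sum was higher although most called markers were lower, so it does not stand for the list as a whole. Markers of cell types that share some of the 8 genes were low. Of 12 macrophage and microglia markers 4 could be tested and these summed to 0.168 to 15.8 CPM over the libraries, with CSF1R at 14.3 CPM in OE cells in normoxia and with C1QA, C1QB and TYROBP at 0 counts in all groups. Of 10 photoreceptor markers 6 could be tested, with a sum of 4.67 to 25.5 CPM and GNAT1 at 0. Of 10 endothelial markers 9 could be tested, with a sum of 188 to 298 CPM in KD cells and 9.50 to 72.2 CPM elsewhere, and ROBO4 carried this with 182 ± 3.20 and 282 ± 3.56 CPM in KD cells (mean ± SD, n = 3), while the group means of CDH5 did not exceed 0.192 CPM. The part of these markers in the results was not tested. In bulk RNA, fewer cells that express a gene and less of its RNA per cell cannot be told apart.

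EMP2, the gene that was altered, was read first. It stood at 54.3, 55.6 and 53.8 CPM in the 3 WT libraries in normoxia, at 620.4, 612 and 527 CPM in OE and at 12.7, 11.2 and 12.8 CPM in KD. In hypoxia it stood at 42.1, 43.8 and 37.8 CPM in WT, at 478, 569.5 and 625 CPM in OE and at 7.75, 7.53 and 7.89 CPM in KD. The OE and KD libraries did not overlap WT at either oxygen level, and each moved in the direction its label gives. VC cells had 49.3 to 52.0 CPM in normoxia and 32.7 to 36.6 CPM in hypoxia. The log2 difference of VC from WT was -0.10 (95% interval -0.27 to 0.06) in normoxia and -0.27 (-0.44 to -0.09) in hypoxia, neither called.

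MERTK (ENSG00000153208, chr2:111898607-112029561, plus strand, GRCh38), the receptor tyrosine kinase that triggers ingestion, rose in KD and VC cells. Levels are given as CPM scaled by TMM (trimmed mean of M-values), in the order of replicates 1, 2 and 3. In normoxia MERTK was at 2.58, 3.15 and 3.01 CPM in WT, at 1.80, 2.54 and 1.74 CPM in OE, at 6.04, 5.55 and 6.35 CPM in KD and at 6.77, 6.62 and 7.54 CPM in VC. In hypoxia it was at 3.22, 3.12 and 2.46 CPM in WT, at 3.14, 2.92 and 3.54 CPM in OE, at 5.26, 5.94 and 5.21 CPM in KD and at 18.1, 20.8 and 20.6 CPM in VC. All KD and VC libraries lay above all WT and OE libraries at the same oxygen level, and the 3 VC libraries in hypoxia lay far above every other library. These values rest on 25 to 366 reads per library. A difference is called where the quasi-likelihood test of edgeR gave an adjusted p (Benjamini-Hochberg, over all genes tested) under 0.01. MERTK was 2.05-fold higher in KD than in WT in normoxia (log2 1.03 ± 0.15 SE, edgeR adjusted p = 2.8e-06) and 1.86-fold higher in hypoxia (log2 0.89 ± 0.16, edgeR adjusted p = 4.3e-05). VC exceeded WT by 2.39-fold in normoxia and by 6.71-fold in hypoxia (log2 1.25 ± 0.15 and 2.75 ± 0.14). OE did not differ from WT beyond the threshold, at log2 -0.51 (95% interval -0.84 to -0.17) in normoxia and 0.12 (-0.21 to 0.44) in hypoxia, but was 3.39-fold and 6.19-fold below VC. Which control was used therefore decided whether MERTK was called lower in OE cells.

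TYRO3 (ENSG00000092445, chr15:41557675-41583589, plus strand), the TAM receptor best known from neurons, varied least of the 8 genes, with a highest group mean 1.94 times the lowest. In normoxia TYRO3 was at 15.8, 17.8 and 17.8 CPM in WT, at 11.1, 11.7 and 13.9 CPM in OE, at 20.4, 22.8 and 22.3 CPM in KD and at 14.1, 12.9 and 13.9 CPM in VC. Under hypoxia TYRO3 was at 11.2, 12.9 and 9.71 CPM in WT, at 8.84, 14.1 and 13.1 CPM in OE, at 16.7, 16.8 and 17.0 CPM in KD and at 19.1, 15.7 and 20.04 CPM in VC. KD libraries lay above WT libraries at both oxygen levels, and OE libraries overlapped WT only in hypoxia. The fall in OE against WT in normoxia was 1.40-fold (log2 -0.49 ± 0.13, edgeR adjusted p = 0.0045) and was no longer called without the first or second OE library or the second or the third WT library in normoxia, at edgeR adjusted p from 0.014 to 0.026. In KD cells TYRO3 was 1.49-fold higher in hypoxia (log2 0.57 ± 0.13, edgeR adjusted p = 0.0013), and in normoxia the difference was log2 0.35 (95% interval 0.11 to 0.59), not called. With only the libraries compared the difference in normoxia was called (0.37, edgeR adjusted p = 0.0022). Without the third WT library in hypoxia the KD difference there was 0.48 and not called. VC against WT was log2 -0.33 in normoxia, not called, but called with only the libraries compared (-0.33, edgeR adjusted p = 0.0055). In hypoxia VC was called higher than WT, at means of 18.3 and 11.3 CPM. OE was called lower than VC in hypoxia (log2 -0.59), a call lost with only the libraries compared (-0.59, edgeR adjusted p = 0.033).

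AXL (ENSG00000167601, chr19:41219223-41261766, plus strand), the TAM receptor for which GAS6 is the ligand, was the predominant TAM receptor transcript. In normoxia AXL was at 404, 387 and 361 CPM in WT, at 349, 353 and 339 CPM in OE, at 220.2, 243 and 229 CPM in KD and at 657, 621 and 677 CPM in VC. Under hypoxia AXL was at 629.8, 579 and 596 CPM in WT, at 286, 417 and 392 CPM in OE, at 392, 386 and 381 CPM in KD and at 951, 979 and 1008 CPM in VC. KD was below and VC above WT at both oxygen levels with no overlap, and OE lay below WT without overlap, by a small margin in normoxia and a wide one in hypoxia. The KD fall was 1.66-fold in normoxia (log2 -0.74 ± 0.09, edgeR adjusted p = 1.1e-07) and 1.56-fold in hypoxia (log2 -0.64 ± 0.09, edgeR adjusted p = 1.1e-06), opposite in sign to the rise of MERTK in the same cells. OE against WT was log2 -0.15 (95% interval -0.32 to 0.02) in normoxia and -0.72 ± 0.09 in hypoxia (edgeR adjusted p = 7.1e-08), where it was -0.59 without the first OE library. VC exceeded WT by log2 0.76 ± 0.09 and 0.70 ± 0.09. The exons of AXL share 67 bases with an opposite-strand long noncoding RNA that had a median of 5 reads per library, against 6764 for AXL.

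Between genes, levels were compared only as CPM per kb, with the merged exons of the GENCODE annotation as length and the canonical transcript as a second length. Of the summed level per kb of the 3 TAM receptors, AXL made up 92.8% to 98.5% across the 8 groups by merged exons and 92.0% to 98.3% by canonical transcript. MERTK made up 0.597% to 2.99% by merged exons, with the highest share in KD cells in normoxia, where AXL was lowest. In VC cells in hypoxia the MERTK share was 2.43%, above the 0.861% of TYRO3. The summed receptor level per kb of merged exon ran from 48.4 in KD cells in normoxia to 197.2 in VC cells in hypoxia.

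**Figure D1:**
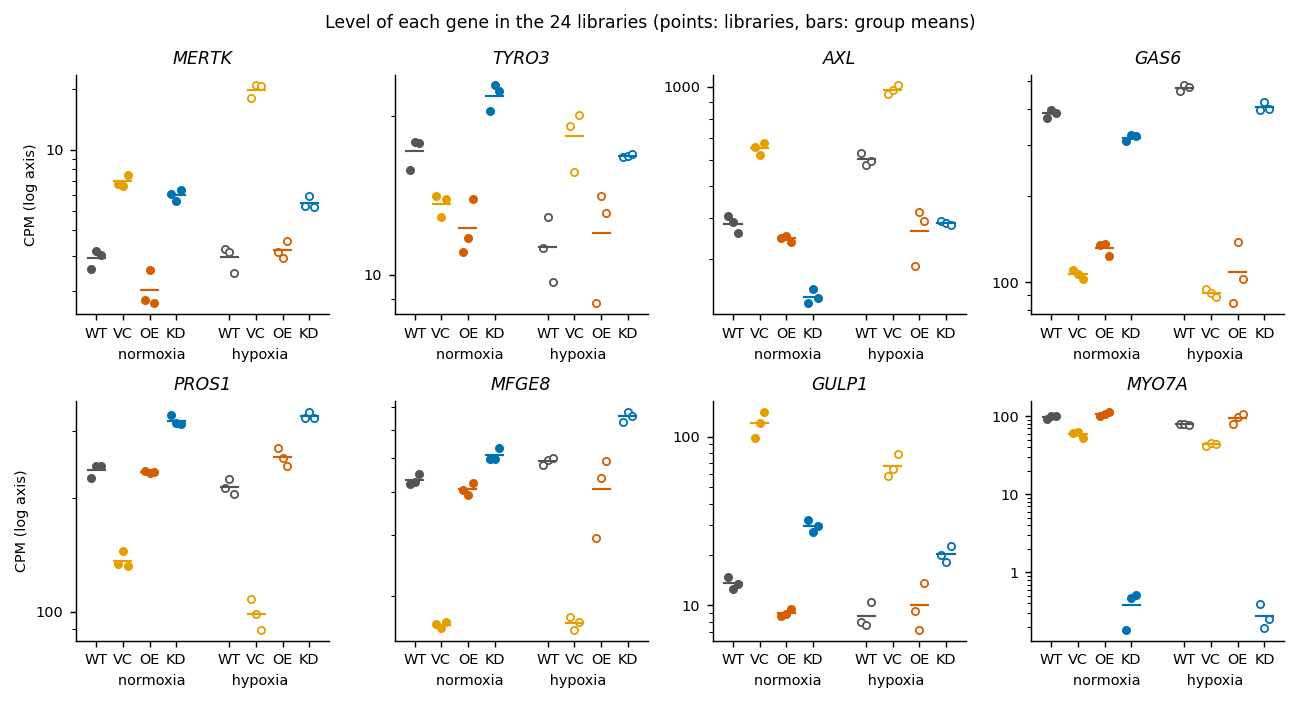
CPM of each of the 8 genes on log axes in the 24 libraries, by line and oxygen level (filled points normoxia, open points hypoxia, bars group means of 3 libraries). MYO7A lies below 1 CPM in all 6 KD libraries, GULP1 is highest in the 6 VC libraries, and GAS6 is low in every VC and OE library.

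GAS6 (ENSG00000183087, chr13:113820549-113864076, minus strand), the vitamin K-dependent ligand of all 3 TAM receptors, was low in both retrovirally transduced lines. In normoxia GAS6 was at 373, 398 and 388 CPM in WT, at 309, 324 and 321 CPM in KD, at 134, 135 and 124 CPM in OE and at 110.5, 107 and 102 CPM in VC. Under hypoxia GAS6 was at 462, 483 and 477 CPM in WT, at 398, 424 and 401 CPM in KD, at 84.4, 138 and 103 CPM in OE and at 94.4, 91.7 and 88.9 CPM in VC. No OE or VC library exceeded 138 CPM and no WT or KD library fell below 309 CPM. Against WT, GAS6 was 2.95-fold lower in OE in normoxia (log2 -1.56 ± 0.10, edgeR adjusted p = 8.5e-14) and 4.36-fold lower in hypoxia (log2 -2.12 ± 0.10, edgeR adjusted p = 7.1e-17). VC showed 3.62-fold and 5.17-fold lower levels (log2 -1.86 ± 0.10 and -2.37 ± 0.10). OE against VC was log2 0.30 (95% interval 0.11 to 0.49, edgeR adjusted p = 0.014) in normoxia and 0.25 (0.05 to 0.44) in hypoxia, neither called. The value in normoxia was called with the replicate number as a block (0.30, edgeR adjusted p = 0.0085), where these groups' same-number libraries deviated together, and that in hypoxia was 0.38 and called without the first OE library. KD against WT was not called, at log2 -0.28 (-0.47 to -0.09) and -0.22 (-0.40 to -0.03). With only the libraries compared both were called (-0.27 and -0.26, edgeR adjusted p = 3.2e-04 and 3.4e-04), and KD libraries lay below WT libraries at both oxygen levels. GAS6 exons share 421 bases, 7.0% of their length, with the opposite-strand gene GAS6-AS1. That gene had a median of 83 reads per library against 3617 for GAS6, and whether the counting used strand is not given in the sources used here.

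PROS1 (ENSG00000184500, chr3:93873051-93980003, minus strand), which encodes protein S, the anticoagulant cofactor that also binds TYRO3 and MERTK, ran in another order. In normoxia PROS1 was at 226, 243 and 242 CPM in WT, at 235, 232 and 234 CPM in OE, at 331, 316 and 314 CPM in KD and at 133, 145 and 132 CPM in VC. Under hypoxia PROS1 was at 212, 224 and 204 CPM in WT, at 271, 254 and 243 CPM in OE, at 326, 338 and 325 CPM in KD and at 108, 98.6 and 89.7 CPM in VC. KD was highest and VC lowest at both oxygen levels, with no overlap with WT. PROS1 was 1.35-fold higher in KD in normoxia (log2 0.43 ± 0.07, edgeR adjusted p = 1.0e-05) and 1.54-fold higher in hypoxia (log2 0.63 ± 0.07, edgeR adjusted p = 1.8e-08). In VC it was 1.74-fold and 2.16-fold lower. OE was not called against WT in normoxia (log2 -0.02, 95% interval -0.15 to 0.11) and was 1.199-fold higher in hypoxia (log2 0.26 ± 0.07, edgeR adjusted p = 0.0028). That call was lost without the first OE library (0.20, edgeR adjusted p = 0.015), without the first WT library (0.26, 0.011) or without the third WT library (0.23, 0.022), and also with only the libraries compared in the fit (0.26, 0.076). Against VC, PROS1 was 1.71-fold and 2.59-fold higher in OE.

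Per kb of merged exon, GAS6 made up 58.8% of the summed ligand level in WT cells in normoxia and 66.0% in hypoxia, but 32.9% and 27.1% in OE cells. By canonical transcript the same shares were 68.6%, 74.9%, 43.0% and 36.3%. The share of GAS6 thus fell from above to below that of PROS1 in OE cells with either length, and in VC cells it was 40.6% and 44.9% by merged exon but 51.2% and 55.5% by canonical transcript, so that their order there depends on the length used, as it does in KD cells in normoxia (46.6% and 57.2%).

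**Figure D2:**
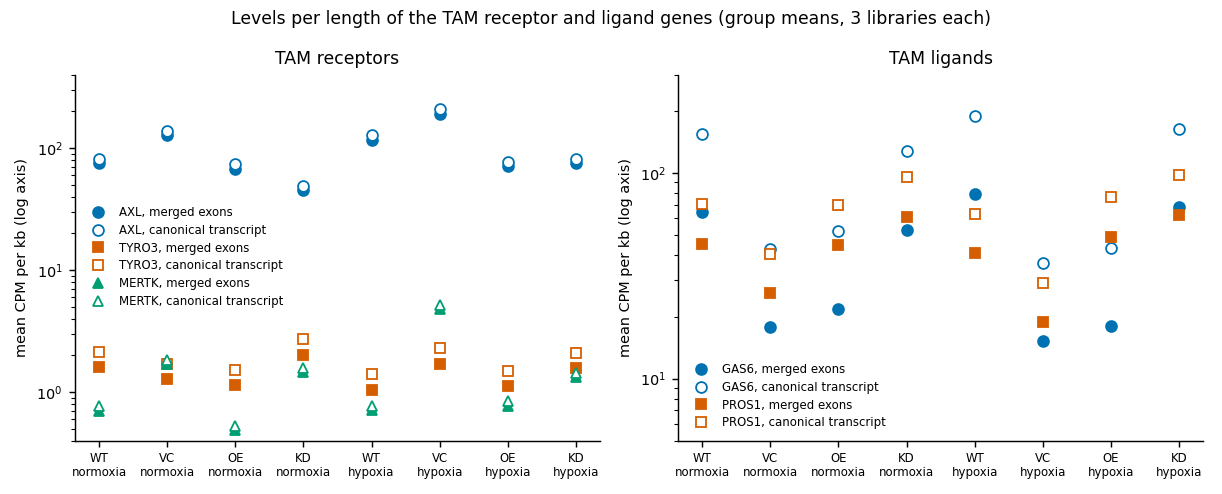
Mean CPM per kb (log axis, 3 libraries per group) of the TAM receptor genes and of their ligand genes in the 8 groups, with merged exons (filled) or the canonical transcript (open) as length. AXL lies above TYRO3 and MERTK in every group, and GAS6 lies below PROS1 in OE cells with either length.

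MFGE8 (ENSG00000140545, chr15:88898683-88913468, minus strand), the gene of the secreted protein that links phosphatidylserine to αvβ5 integrin, was depleted in VC cells. In normoxia MFGE8 was at 419.9, 427 and 449 CPM in WT, at 405, 391 and 425 CPM in OE, at 496, 495 and 534 CPM in KD and at 167, 162 and 169 CPM in VC. In hypoxia it was at 477, 494 and 498 CPM in WT, at 295, 437 and 491 CPM in OE, at 635, 679 and 662 CPM in KD and at 174, 160.3 and 168 CPM in VC. No VC library exceeded 174 CPM and no other library fell below 295 CPM. VC was 2.61-fold lower than WT in normoxia (log2 -1.38 ± 0.10, edgeR adjusted p = 5.5e-12) and 2.92-fold lower in hypoxia (log2 -1.55 ± 0.11, edgeR adjusted p = 4.1e-13), and OE exceeded VC by 2.46-fold and 2.43-fold. KD was 1.35-fold above WT in hypoxia (log2 0.43 ± 0.10, edgeR adjusted p = 0.0019) and log2 0.24 (95% interval 0.04 to 0.44) above it in normoxia, not called. The call in hypoxia was lost without the first WT library (0.41, edgeR adjusted p = 0.012) or the second KD library (0.41, 0.011). The difference in normoxia was called with only the libraries compared (0.25, edgeR adjusted p = 0.0011). OE was not called against WT, at log2 -0.09 (-0.29 to 0.11) in normoxia and -0.26 (-0.46 to -0.06) in hypoxia, the latter -0.10 without the first OE library.

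GULP1 (ENSG00000144366, chr2:188291669-188595931, plus strand), the adaptor that couples engulfment receptors to cytoplasmic signalling, had the largest rise of the 8 genes in VC against WT. In normoxia GULP1 was at 14.8, 12.5 and 13.3 CPM in WT, at 8.64, 8.88 and 9.55 CPM in OE, at 31.9, 27.2 and 29.5 CPM in KD and at 98.7, 120.1 and 140.5 CPM in VC. In hypoxia it was at 8.02, 7.64 and 10.4 CPM in WT, at 9.25, 7.18 and 13.6 CPM in OE, at 19.8, 18.1 and 22.4 CPM in KD and at 58.6, 64.5 and 78.9 CPM in VC. At each oxygen level VC lay above KD and KD above WT with no overlap, while OE overlapped WT only in hypoxia. VC exceeded WT by 8.86-fold in normoxia (log2 3.15 ± 0.17, edgeR adjusted p = 4.1e-13) and by 7.76-fold in hypoxia (log2 2.96 ± 0.18, edgeR adjusted p = 2.5e-12). KD exceeded WT by 2.18-fold (log2 1.13 ± 0.17, edgeR adjusted p = 2.1e-05) and 2.31-fold (log2 1.21 ± 0.19, edgeR adjusted p = 2.5e-05). OE against WT was log2 -0.58 (95% interval -0.95 to -0.22, edgeR adjusted p = 0.022) in normoxia and 0.20 (-0.19 to 0.59) in hypoxia, neither called, whereas against VC it was 13.3-fold and 6.75-fold lower. The difference of OE from WT in normoxia was called with only the libraries compared (-0.58, edgeR adjusted p = 6.1e-05) and with the replicate block (-0.59, edgeR adjusted p = 0.0015).

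MYO7A (ENSG00000137474, chr11:77128246-77215241, plus strand), the phagosome and melanosome motor, was nearly lost from KD cells. In normoxia MYO7A was at 93.0, 102 and 99.9 CPM in WT, at 99.7, 107 and 115 CPM in OE and at 61.1, 63.9 and 52.5 CPM in VC. In hypoxia it was at 80.2, 79.9 and 77.0 CPM in WT, at 79.6, 99.3 and 108 CPM in OE and at 41.9, 45.2 and 44.8 CPM in VC. The 3 KD libraries held 3, 9 and 8 MYO7A reads in normoxia and 6, 3 and 3 in hypoxia. Summed over libraries the KD level was 0.397% of the WT level in normoxia (exact 95% interval 0.243% to 0.614%, 20 reads) and 0.354% in hypoxia (0.183% to 0.620%, 12 reads), intervals that cover counting error only. edgeR gave log2 -7.95 (edgeR adjusted p = 1.0e-24) and -8.10 (edgeR adjusted p = 7.0e-24). The standard errors derived from the test, 0.17 and 0.19, are smaller than the counting error of so few reads. The exact intervals above are the better measure of uncertainty here. VC was 1.66-fold and 1.80-fold below WT (log2 -0.73 ± 0.09 and -0.85 ± 0.10). OE was not called against WT, at log2 0.12 (95% interval -0.06 to 0.31) and 0.28 (0.09 to 0.46), but without the first OE library the latter was 0.37 and called (edgeR adjusted p = 1.0e-04). Against VC, OE was 1.81-fold and 2.18-fold higher.

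By comparison, 5 of the 8 genes were called in KD against WT in normoxia, where 16.3% of all genes tested were called, and 7 in hypoxia, where 18.2% were. All 8 were called in normoxia with only the libraries compared in the fit. MERTK, PROS1 and GULP1 rose and AXL and MYO7A fell at both oxygen levels, 5 of 8 called the same way at both against 11.9% of all genes. In OE against WT 2 were called in normoxia against 19.7% of all genes, and 3 in hypoxia against 26.6%. GAS6 fell at both oxygen levels, 1 of 8 against 14.4%. In VC against WT 7 were called in normoxia against 35.8% of all genes, and all 8 in hypoxia against 39.9%. MERTK, AXL and GULP1 rose and GAS6, PROS1, MFGE8 and MYO7A fell at both, 7 of 8 against 29.1%. OE against VC gave 6 in normoxia against 33.5%, and 7 in hypoxia against 38.2%. PROS1, MFGE8 and MYO7A were higher and MERTK, AXL and GULP1 lower in OE at both, 6 of 8 against 27.3%. The median log2 change of the 8 genes was 0.29 and 0.50 in KD against WT, -0.32 and 0.11 in OE against WT and -0.53 and -0.08 in VC against WT, in normoxia and hypoxia, and that of all genes was between 0.00 and 0.03 in each. Comparisons of OE, KD and VC with WT share the WT libraries, and those of OE share the OE libraries. The shares are over all 24873 genes tested, of which 9599 averaged at least 10 CPM. Genes with few reads are harder to call, so the shares are not matched to the levels of the 8 genes.

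**Figure D3:**
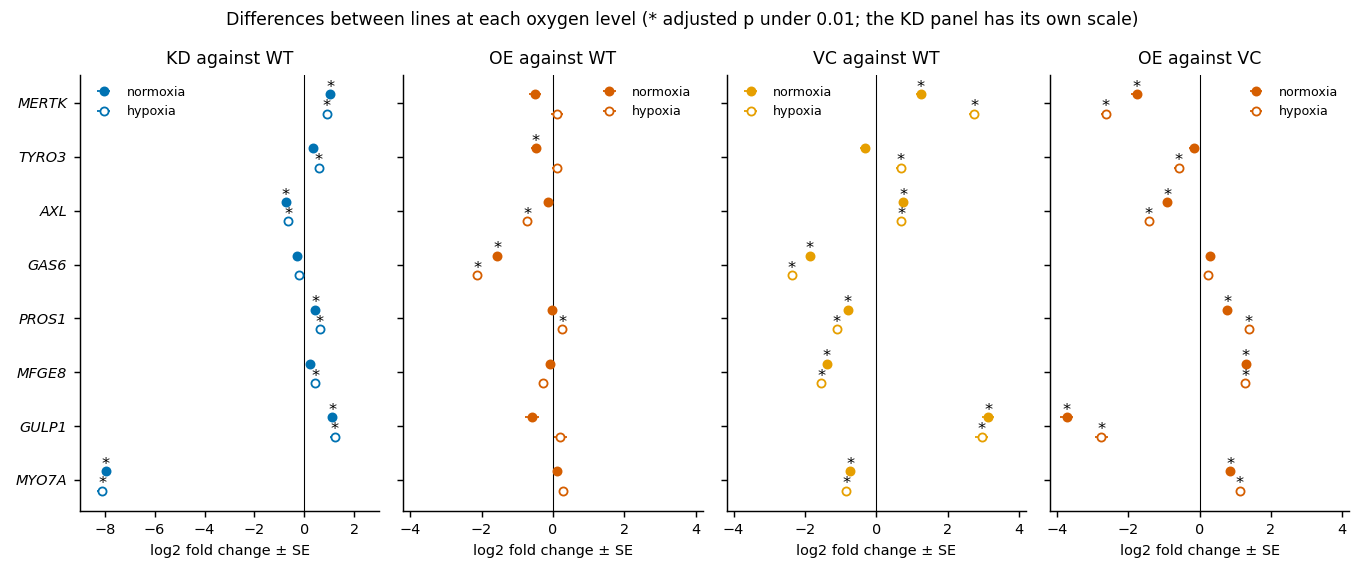
Log2 fold change ± SE of each gene for KD, OE and VC against WT and for OE against VC (filled normoxia, open hypoxia, stars adjusted p under 0.01). MERTK, AXL and GULP1 lie to the right of 0 in VC against WT and to the left in OE against VC, while the MYO7A points of KD cells lie near -8 on a scale of their own. The SE drawn for those MYO7A points is smaller than their counting error.

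Hypoxia for 4 h raised AXL in 3 of the 4 lines. In WT cells 2 of 8 were called against 21.1% of all genes, or 4 with the replicate number as a block, since same-number libraries deviated together there, in VC cells 5 against 21.0%, in OE cells 1 against 13.9% and in KD cells 3 against 19.1%. With only the libraries compared the counts were 6 in WT, 0 in OE and 5 in KD cells. The levels of AXL, given above by library, did not overlap between normoxia and hypoxia in WT, VC or KD cells, with rises of 1.57-fold in WT (log2 0.65 ± 0.09, edgeR adjusted p = 7.0e-07), 1.503-fold in VC (log2 0.59 ± 0.09, edgeR adjusted p = 3.5e-06) and 1.67-fold in KD (log2 0.74 ± 0.09, edgeR adjusted p = 8.9e-08). In OE cells the change was log2 0.07 (95% interval -0.10 to 0.25), with overlap, and 0.23 and called without the first OE library (edgeR adjusted p = 0.0021). MERTK rose 2.85-fold in VC cells (log2 1.51 ± 0.13, edgeR adjusted p = 1.4e-10) and 1.56-fold in OE cells (log2 0.64 ± 0.17, edgeR adjusted p = 0.0071). The OE rise was 0.65 without the first OE library in hypoxia and not called (edgeR adjusted p = 0.018), and it also lost its call without the third OE library in hypoxia or the first or the third in normoxia, or with only the libraries compared (0.68, edgeR adjusted p = 0.11). In WT cells MERTK was not called (log2 0.02, 95% interval -0.30 to 0.34).

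TYRO3 fell 1.52-fold in WT cells (log2 -0.60 ± 0.13, edgeR adjusted p = 6.1e-04), and in VC cells the difference had the opposite sign and was not called (log2 0.42, 95% interval 0.17 to 0.67), although it was with the replicate block (0.42, edgeR adjusted p = 0.0098). In KD cells TYRO3 stood lower too (log2 -0.38), not called, but called with only the libraries compared (-0.42, edgeR adjusted p = 6.4e-04). PROS1 fell 1.38-fold in VC cells (log2 -0.47 ± 0.07, edgeR adjusted p = 3.5e-06) with no overlap, GULP1 fell 1.78-fold (log2 -0.83 ± 0.15, edgeR adjusted p = 1.5e-04) and MYO7A fell 1.35-fold (log2 -0.43 ± 0.10, edgeR adjusted p = 8.5e-04). The MYO7A call was lost without the second VC library in normoxia (-0.36, edgeR adjusted p = 0.013), and the GULP1 call with only the libraries compared (-0.82, edgeR adjusted p = 0.016). GULP1 also stood lower in hypoxia in WT (log2 -0.64, -1.01 to -0.27) and KD cells (-0.56, -0.88 to -0.23), neither called. With only the libraries compared both were called (-0.63 and -0.59, edgeR adjusted p = 2.8e-04 and 7.5e-05). In WT cells the replicate block gave a call for GULP1 (-0.65, edgeR adjusted p = 5.7e-04) and for MYO7A (-0.31, edgeR adjusted p = 0.0067, against -0.31 and no call without it). GAS6 rose 1.28-fold in KD cells (log2 0.36 ± 0.10, edgeR adjusted p = 0.0050) and MFGE8 1.30-fold (log2 0.37 ± 0.10, edgeR adjusted p = 0.0062). Both calls were lost when any 1 of the 6 KD libraries was left out, with log2 values of 0.32 to 0.38 for GAS6 and 0.33 to 0.40 for MFGE8. In WT cells both also stood higher in hypoxia (log2 0.30 and 0.18), not called. With only the libraries compared both were called there (0.31 and 0.19, edgeR adjusted p = 8.0e-05 and 0.0061). In VC cells GAS6 stood lower (-0.22), called only with that fit (-0.20, edgeR adjusted p = 0.0081).

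**Figure D4:**
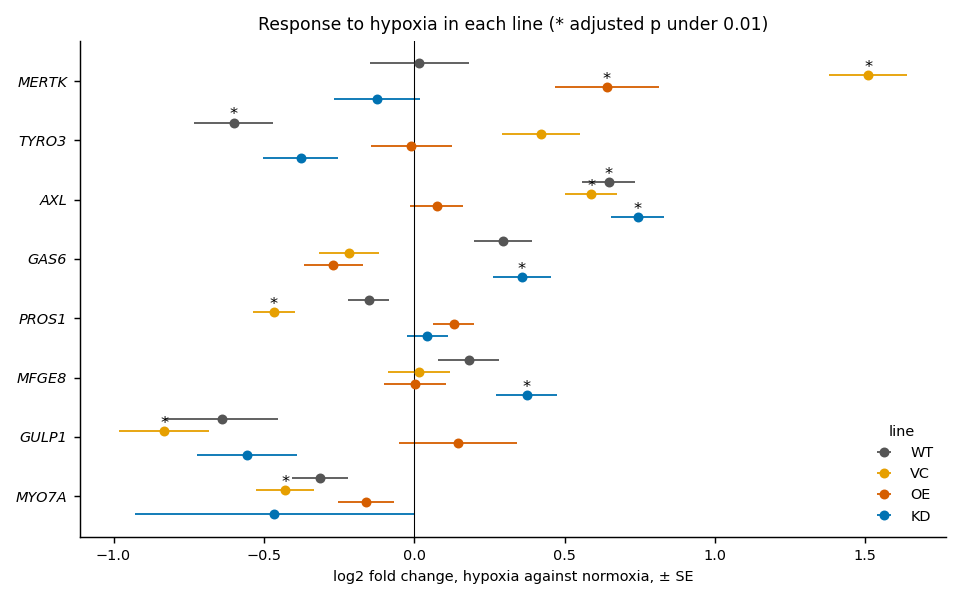
Log2 fold change ± SE of hypoxia against normoxia for each gene in WT, VC, OE and KD cells (stars adjusted p under 0.01). AXL lies between 0.59 and 0.74 in WT, VC and KD cells and at 0.07 in OE cells, and MERTK is at 1.51 in VC cells.

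The response to hypoxia was also compared between lines by an interaction term. The response of MERTK was larger in VC than in WT cells by log2 1.49 ± 0.21 (edgeR adjusted p = 5.7e-06) and that of TYRO3 by 1.02 ± 0.18 (edgeR adjusted p = 1.9e-04), 2 of 8 genes against 8.02% of all genes. For GAS6 that difference was -0.51 and not called, but was called with the replicate block (-0.51, edgeR adjusted p = 0.0053). With only the libraries compared, GAS6 (-0.53, edgeR adjusted p = 2.7e-06) and PROS1 (-0.33, edgeR adjusted p = 0.0060) were also called between VC and WT. OE differed from WT for AXL by -0.57 ± 0.12 (edgeR adjusted p = 0.0020) and for GAS6 by -0.57 ± 0.14 (edgeR adjusted p = 0.0057), 2 of 8 against 6.18%. OE differed from VC for MERTK by -0.87 ± 0.22 (edgeR adjusted p = 0.0085), for AXL by -0.51 ± 0.12 (edgeR adjusted p = 0.0061) and for PROS1 by 0.60 ± 0.10 (edgeR adjusted p = 7.7e-05), 3 of 8 against 5.13%. KD differed from WT for 0 of 8 genes by edgeR against 0.985% of all genes, also 0 of 8 at an unadjusted p under 0.05 and 0 of 8 by DESeq2. The intervals of that difference were -0.15 to 0.34 for AXL, -0.57 to 0.29 for MERTK and -0.20 to 0.33 for GAS6. Without the first OE library the OE and WT responses still differed for AXL (-0.43, edgeR adjusted p = 4.9e-05) and GAS6 (-0.42, edgeR adjusted p = 8.2e-04), and then also for TYRO3 (0.75, edgeR adjusted p = 5.1e-04). With only the libraries compared in the fit, neither OE and WT difference was called, at -0.57 for AXL (edgeR adjusted p = 0.024) and -0.56 for GAS6 (edgeR adjusted p = 0.058), nor were those of OE and VC for MERTK (-0.85, edgeR adjusted p = 0.030) and AXL (-0.50, edgeR adjusted p = 0.042). The OE and VC difference for PROS1 (0.62, edgeR adjusted p = 0.0040) and the VC and WT differences for MERTK and TYRO3 were still called. In the fit of all groups, the OE and WT difference for GAS6 was not called without any 1 of the 3 WT libraries in hypoxia. The same held without the first WT library or the first or second OE library in normoxia, or the third OE library in hypoxia. In these cases the edgeR adjusted p ran from 0.010 to 0.016. Between OE and VC, the AXL difference was not called without the first or second OE or second VC library in normoxia or the third VC library in hypoxia (-0.51 to -0.48). The MERTK difference was not called without the first or second VC or second OE library in normoxia, or the second or the third VC or second OE library in hypoxia (-0.84 to -0.66).

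The order of the 8 groups differed by gene. MERTK, AXL and GULP1 were highest in VC cells, in hypoxia for the receptors and in normoxia for GULP1. TYRO3 was highest in KD cells in normoxia. PROS1 and MFGE8 were highest in KD cells in hypoxia and lowest in VC cells, GAS6 was highest in WT cells in hypoxia and lowest in VC cells in hypoxia, and MYO7A was highest in OE cells in normoxia. Neighbours in the order were not always distinct. The WT and OE groups of MERTK in hypoxia, at 2.94 and 3.20 CPM, differed by 0.263 CPM, less than the larger SD of 0.411 CPM, and the 2 KD groups of PROS1, at 320.1 and 329.8 CPM, overlapped. The 4 lowest groups of TYRO3, between 11.3 and 13.7 CPM, overlapped their neighbours, as did WT in normoxia and OE at both oxygen levels for MYO7A.

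Other genes of the uptake pathway were described by lists, each with how many of its tested genes were called and the median log2 change, to be read against the shares of all genes given above. The integrin arm holds αvβ5 and its signalling partners. Of 10 tested, 3 fell in KD against WT in normoxia, 3 rose and 3 fell in hypoxia, 1 rose and 3 fell in OE in normoxia, 4 rose and 4 fell in hypoxia, and 1 rose and 4 fell, then 3 rose and 4 fell, in VC, with medians from -0.18 to 0.17. ITGB5, the β5 subunit that binds MFGE8, fell in all 3 lines at both oxygen levels. Its normoxic mean was 2249 ± 51.6 CPM in WT, 972 ± 50.5 in KD, 996 ± 132 in OE and 316 ± 20.9 in VC (mean ± SD, n = 3). Its partner ITGAV fell in KD, to 443 ± 40.8 from 807 ± 64.6 CPM, fell in VC, to 662 ± 23.7 CPM, and rose in OE, to 1474 ± 13.9 CPM. SRC, a kinase downstream of the integrin, fell in KD against WT (log2 -0.93 ± 0.10 in normoxia and -0.37 ± 0.10 in hypoxia) and in VC in normoxia (-0.83 ± 0.10), and rose in OE in hypoxia (0.62 ± 0.10). On hypoxia SRC fell in WT, OE and KD cells (log2 -1.10, -0.76 and -0.54, each ± 0.10) and was not called in VC cells (-0.18 ± 0.10).

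Of 9 other uptake receptors tested, 1 rose in KD at each oxygen level. That gene was CD36, the scavenger receptor that RPE cells use for outer segments and oxidised lipid, at 0.991 ± 0.269 CPM in WT and 11.5 ± 1.36 CPM in KD in normoxia (log2 3.55 ± 0.30) and 0.804 ± 0.315 and 8.82 ± 0.118 CPM in hypoxia. In OE 2 rose in normoxia and 1 rose and 1 fell in hypoxia, and in VC 2 rose and 1 fell, then 2 rose and 2 fell, with medians for the 3 lines from -0.37 to 0.48. LRP1, a receptor that binds GULP1, fell in VC from 1566 ± 206 to 310 ± 32.6 CPM in normoxia. In hypoxia it was called lower than WT in VC and OE (log2 -2.18 ± 0.37 and -1.48 ± 0.36). Its libraries varied widely there, at 3664 ± 1565 CPM in WT, 811 ± 320 in VC and 1311 ± 428 in OE. Among 6 genes of other TAM ligands and processing, LGALS3, which encodes galectin-3, a ligand reported for MERTK, rose in all 3 lines. It stood at 19.2 ± 1.34 CPM in WT, 28.4 ± 2.92 in KD, 71.4 ± 3.53 in OE and 121 ± 9.18 in VC in normoxia. GGCX, the carboxylase that GAS6 and PROS1 need, fell in KD (log2 -0.46 ± 0.07 and -0.56 ± 0.07) and OE (log2 -0.28 ± 0.07 and -0.41 ± 0.07), while ADAM10, a protease that sheds membrane receptors, fell in KD and rose in VC (log2 -0.37 ± 0.07 and 0.57 ± 0.07 in normoxia). Of these 6, 2 rose and 3 fell, then 3 rose and 2 fell, in KD, 1 rose and 2 fell, then 1 rose and 1 fell, in OE, and 4 rose and 1 fell, then 4 rose and 2 fell, in VC, with medians from -0.12 to 0.48.

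Of the 4 genes of the GULP1 route, 4 rose in VC in normoxia and 3 in hypoxia, with medians of 1.39 and 0.93, and 2 and 3 fell in OE against WT, with medians of -0.52 and -0.76. In KD 1 rose and 1 fell in normoxia and 1 fell in hypoxia, with medians of 0.39 and 0.17. ABCA7, a lipid transporter linked to engulfment, stood at 26.0 ± 2.02 CPM in WT, 68.7 ± 5.04 in VC, 16.1 ± 0.922 in OE and 13.3 ± 1.15 in KD in normoxia. ABCA1, the related cholesterol exporter, stood at 33.6 ± 2.14, 87.1 ± 5.30, 21.7 ± 0.923 and 68.8 ± 10.8 CPM in the same order, and ARF6, a small GTPase, at 129 ± 3.67, 179 ± 2.08, 96.9 ± 4.402 and 138 ± 12.03 CPM. ABCA1 thus ran in the same order of lines as GULP1 in normoxia, with OE against WT not called for either in the fit of all groups.

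Of 8 MYO7A partners and phagosome transport genes, 1 rose and 1 fell in KD in normoxia and 1 rose and 2 fell in hypoxia, with medians of 0.02 and 0.06. RAB27A, the GTPase that tethers melanosomes to MYO7A, fell in OE from 55.8 ± 4.25 to 14.8 ± 1.49 CPM in normoxia and from 65.2 ± 3.33 to 17.1 ± 1.30 CPM in hypoxia (log2 -1.91 ± 0.11 and -1.94 ± 0.11). RAB27A was also lower than WT in VC (log2 -0.52 ± 0.10 and -0.43 ± 0.10) and in KD in hypoxia (-0.61 ± 0.10). In OE 1 rose and 2 fell, then 2 rose and 1 fell, with medians of 0.04 and 0.00. In VC 3 rose and 2 fell, then 4 rose and 1 fell, with medians of 1.47 and 1.24. In VC in normoxia no gene of this list that rose reached the mean CPM set for naming a gene. The 2 that fell were RAB27A and KIF5B (log2 -0.31 ± 0.06 for KIF5B). In hypoxia KIF5B (log2 0.43 ± 0.06) was the only gene that rose and reached that level. The VC medians therefore draw on genes at low levels and do not stand for the list as a whole. Of 6 phosphatidylserine exposure genes, 4 fell in OE at each oxygen level and 5 in VC at each, with medians from -0.56 to -0.37, and in KD 1 rose and 2 fell in normoxia and 1 rose in hypoxia, with medians of -0.07 and 0.04. ANO6, the scramblase TMEM16F, rose in KD (log2 0.61 ± 0.06 and 0.56 ± 0.06), fell in OE (-0.28 ± 0.06 and -0.81 ± 0.06) and in VC (-0.92 ± 0.06 and -1.02 ± 0.06), and rose on hypoxia in all 4 lines by log2 0.31 to 0.84. Of 13 phagosome maturation genes, 4 fell in KD in normoxia and 3 rose and 4 fell in hypoxia, with medians of -0.07 and 0.02, and 5 rose and 3 fell, then 7 rose and 4 fell, in VC, with medians of -0.06 and 0.27. The lysosomal protease gene CTSD fell in VC from 3314 ± 190 to 893 ± 43.1 CPM in normoxia, and LAMP2, a lysosomal membrane protein gene, fell in KD (log2 -0.44 ± 0.07) and in VC (log2 -0.63 ± 0.07). In OE 1 rose and 2 fell, then 3 rose and 3 fell, with medians of -0.20 and -0.07.

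**Figure D5:**
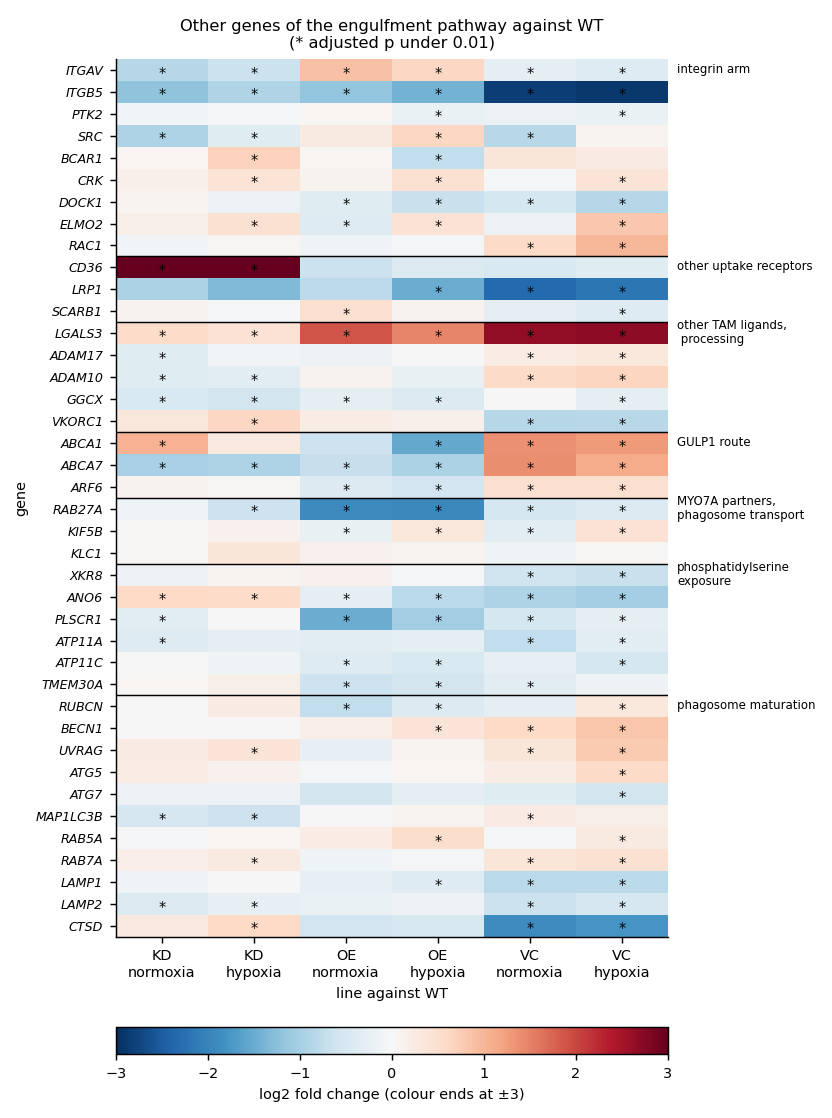
Log2 fold change against WT of the listed pathway genes with a mean of at least 10 CPM in some group, in KD, OE and VC cells at each oxygen level (colour, ending at ±3, and stars for adjusted p under 0.01). ITGB5 is lower and LGALS3 higher in all 6 columns, CD36 is called higher in both KD columns, and ABCA7 is higher in VC and lower in KD and OE.

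The genes whose levels ran most like each member over the 24 libraries were found by Pearson's r of log2 CPM among 9599 genes with a mean of at least 10 CPM, as a description, since the libraries fall into 4 lines and share their depth and preparation. MYO7A ran most like ARSD and CDH11 (r = 0.99 for each), which were also near 0 in KD cells, at 0.126 and 0.999 CPM in normoxia against 46.7 and 353 CPM in WT, and like THBS1 (r = 0.98), at 318 against 3300.5 CPM. GULP1 ran most like PRDM1, B4GALT5 and UQCC1 (r = 0.96 for each), and PRDM1, a transcriptional repressor gene, stood at 55.1 CPM in VC and at 0.282 CPM in WT in normoxia. MERTK was closest to BID (r = 0.96), SIX4 and GMPPA, AXL to RHBDF2 (r = 0.98), UBE2C and TNIP1, and TYRO3 to KIAA0513 (r = 0.90), CRTC3 and PCYT2. GAS6 was closest to CMTM3 (r = 0.99), AK5 and FBLN7, and AK5, an adenylate kinase gene, fell from 51.9 CPM in WT to 3.64 in VC and 4.48 in OE in normoxia. PROS1 was closest to PBX3 (r = 0.98), SUSD5 and FUT8, and MFGE8 to EFEMP2 (r = 0.99), PLEKHM2 and SPARC. Among the members, PROS1 and MFGE8 had r = 0.91, MERTK and GULP1 0.81, and AXL and PROS1 -0.89.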

How the data were processed

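RNA of 24 ARPE-19 libraries (8 groups of 3, from the labels) was prepared by ribosomal RNA depletion and sequenced as single reads of 50 bases. The authors mapped reads with STAR to GRCh38 and deposited raw read counts per gene. The authors also deposited a signal table of the same counts divided by TMM-scaled library size, and an alignment report whose other values are mapped reads per library. The annotation is named differently in the alignment report and in the methods, and the strand setting is not given in the sources used here. All signal values above 0 (530927) gave whole reads within 0.01 (100%), equal to the deposited counts, and edgeR on them called the same number of genes in all 16 comparisons (for example 4058 for KD against WT in normoxia).

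Genes with at least 10 reads in all (24873 of 60623) were fitted in 1 edgeR 4.0.16 quasi-likelihood model of the 8 groups (R 4.3.3, TMM, robust), as a two-sided test with Benjamini-Hochberg adjustment and the study's threshold of 0.01. Standard errors are the fold change divided by the square root of F, which is too small for MYO7A in KD cells. CPM are TMM-scaled. A floor of 3 reads is 0.152 to 0.278 CPM, for counting error only. The fit was tested on data simulated with the WT means in normoxia for every group and 1 spread per gene. Changes were planted only in OE in normoxia. That test therefore does not cover the larger spread of OE in hypoxia or genes at very low levels. Replicate numbers are the labels' set numbers, and what a set shares is not given. In 5 of 12 comparisons of 2 groups all 3 same-number pairs had a correlation of deviations over 0.1 (0.10 to 0.49). These were KD against WT at both oxygen levels, OE against VC in normoxia, and hypoxia in WT and in VC cells, and there the blocked value is given beside a call it changes. Alternatives were DESeq2 1.42.0, limma 3.58.1 on log2 of the normalized value plus 1 or 5, RLE size factors, no filter, filterByExpr, a threshold of 0.05, only the libraries compared, a replicate block, 37 mitochondrial and ribosomal RNA genes left out, and each library or replicate number left out. Recovered reads were added after seeing the data.

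The members and lists were chosen with earlier results of these data known. Named were the 8 members and EMP2, up to 3 called genes per list and comparison with the largest change, where the group with more of the gene averaged 10 CPM or above, and the 3 genes most correlated with each member. A value in a further comparison is given for genes so named. Gene positions are from GENCODE and promoters from RefSeq.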

Additional observations from a re-analysis of the deposited data

Results flagged for a closer look

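In 7 cases the response of a gene to hypoxia differed between lines by an edgeR interaction test, given as log2 difference of responses with the adjusted p. The response of MERTK exceeded that of WT in VC cells by 1.49 (edgeR adjusted p = 5.7e-06), with a rise in VC and no call in WT. The response of TYRO3 in VC differed from that in WT by 1.02 (edgeR adjusted p = 1.9e-04), with a fall in WT. The response of AXL in OE differed from that in WT by -0.57 (edgeR adjusted p = 0.0020) and from that in VC by -0.51 (edgeR adjusted p = 0.0061). The response of GAS6 in OE differed from that in WT by -0.57 (edgeR adjusted p = 0.0057). Against VC, the response of MERTK in OE differed by -0.87 (edgeR adjusted p = 0.0085) and that of PROS1 by 0.60 (edgeR adjusted p = 7.7e-05). The comparisons share the OE, VC or WT libraries, so these 7 are not independent of each other. Without the first OE library in hypoxia the AXL differences were -0.43 and -0.39, the GAS6 difference -0.42, the MERTK difference -0.89 and the PROS1 difference 0.53, all still called. With only the libraries compared in the fit, the AXL differences from WT and VC (edgeR adjusted p = 0.024 and 0.042), the GAS6 difference (edgeR adjusted p = 0.058) and the MERTK difference of OE and VC (edgeR adjusted p = 0.030) were not called, while the other 3 were. Leaving out other single libraries also ended the GAS6 call and, between OE and VC, the AXL and MERTK calls.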

How the results depend on the processing

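Of the values of members called, 676 of 693 under other settings and 534 of 609 with a library or replicate number left out kept their call, and 0 reversed. Of 1450 values of members not called, 120 became called and 50 changed sign. The number of members called changed as follows. At an adjusted p under 0.05 it was 4 for OE against WT in normoxia, 5 in hypoxia, 5, 2 and 5 for hypoxia in WT, OE and KD, and 4 for the VC and WT responses. With only the libraries compared it was 8 for KD against WT in normoxia, 6, 0 and 5 for hypoxia in WT, OE and KD, and 0, 4 and 1 for the responses of OE and WT, VC and WT, and OE and VC. Hypoxia in WT gave 4 with RLE size factors or filterByExpr and 5 with no filter or DESeq2. Hypoxia in OE gave 0 with no filter, DESeq2 or limma plus 5, hypoxia in KD gave 5 with no filter or DESeq2 and 1 with limma plus 1 or plus 5, and the VC and WT responses gave 4 with DESeq2.

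In 5 of 12 comparisons the replicate numbers met the correlation rule for pairing, and in the other 7 they did not. Over 84 same-number pairs the correlation of deviations ran from -0.26 to 0.49 (median 0.13), 48 exceeded 0.1, and 12 of 24 libraries correlated best with their own number. With the replicate block, 4 members were called for hypoxia in WT, and MFGE8 for hypoxia in OE was -0.0067 against 0.0026. Other counts moved by at most 1. In comparisons of 2 groups that did not meet the rule, the block added calls for GULP1 in OE against WT in normoxia (-0.59) and in hypoxia in KD (-0.56). The rule was not applied to the differences of responses. There the block added calls for GULP1 between OE and VC (0.96) and for GAS6 between VC and WT (-0.51). In KD against WT it changed no member's call.

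Uncalled values near 0 changed sign. TYRO3 for hypoxia in OE, -0.01 as reported, was 0.0073 with RLE size factors, 0.0035 with no filter, 0.0084 with filterByExpr, 0.0020 with only the libraries compared, 0.0088 with DESeq2 and 0.0064 without mitochondrial and ribosomal RNA genes. MFGE8 for hypoxia in OE was -0.014 and -0.013 with limma plus 1 and plus 5, and 0.0018 for the OE and VC responses with filterByExpr. For the KD and WT responses GULP1 was -0.048 with limma plus 5 and MYO7A 0.18 and 0.26 with limma plus 1 and plus 5. The cause was not tested.

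With a library or replicate number left out, members called ranged from 1 to 2 for OE against WT in normoxia, from 2 to 4, 0 to 2 and 1 to 4 for hypoxia in WT, OE and KD, and from 0 to 3, 1 to 3 and 0 to 3 for the responses of OE and WT, VC and WT, and OE and VC. OE against WT in hypoxia ranged from -0.077 to 0.23 for MERTK, -0.058 to 0.25 for TYRO3 and -0.093 to 0.41 for GULP1. Hypoxia in OE ranged from -0.22 to 0.081 for EMP2, -0.16 to 0.16 for TYRO3, -0.15 to 0.20 for MFGE8 and -0.15 to 0.39 for GULP1, in WT from -0.12 to 0.15 for MERTK, and in KD from -0.0043 to 0.060 for PROS1. The KD and WT responses ranged from -0.30 to 0.020 for MERTK, -0.012 to 0.23 for GULP1 and -0.80 to 0.22 for MYO7A, the OE and VC responses from -0.26 to 0.10 for GAS6 and -0.17 to 0.18 for MFGE8, and the OE and WT responses from -0.33 to 0.0055 for MFGE8.

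Over all genes, the calls in hypoxia in OE were 3449 as reported, 762 with only the libraries compared, 5571 at 0.05, 1611 without replicate 2 and 2007 without replicate 3. Other calls that moved by over 1.5 times, with only the libraries compared, were 3411 (6626 as reported) for OE against WT and 6081 (9502) for OE against VC in hypoxia, and 888 (1536), 605 (245), 3019 (1996) and 707 (1277) for the responses of OE and WT, KD and WT, VC and WT, and OE and VC. At 0.05 these responses gave 2549, 504, 3117 and 2246. The KD and WT responses gave 374 with no filter, 382 with limma plus 5 and 523 with DESeq2, and the OE and VC responses 2008 with no filter and 2134 with limma plus 5. Without replicate 2 the calls fell to 3025 for OE against WT and 2201 (4058) for KD against WT in normoxia, 2484 (4531) for KD against WT in hypoxia, and 3082 (5250), 2645 (5228) and 2484 (4753) for hypoxia in WT, VC and KD, and 477, 15, 492 and 361 for the responses in the order above, which without replicate 3 gave 776, 57, 1062 and 623. The KD and WT responses gave 161 without the first WT library in normoxia, 156 without the second WT library in hypoxia and 140.0 without the second KD library in normoxia.

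Depth limits MERTK (25 to 366 reads per library) and MYO7A in KD cells (3 to 9 reads), where small differences were not detectable. RLE size factors shifted the log2 values of the members by at most 0.037 in any comparison.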
